A study of Mus musculus with 41 samples.

Results

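The genes that let mammary epithelium sense estrogen, progesterone and prolactin, with the transcription factors and targets that work beside them, were followed in 41 Trp53-null mammary tumors. The group held 9 genes, chosen by name: the receptors Esr1, Esr2, Pgr and Prlr, the transcription factors Foxa1 and Gata3, the targets Greb1 and Tnfsf11, and the cofactor Cited1. All 9 were found among the 30175 gene names on the array. Of these 9, 8 passed the filter on low signals and were tested with 20913 genes in all. Pgr did not pass, since each of its 3 probes was dim in many arrays, and it was tested in a separate fit without the filter.

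Estrogen and progesterone reach the mammary gland from the ovary and act on a subset of luminal cells that carry their receptors. Estrogen receptor alpha, the product of Esr1, opens growth programs together with the pioneer factor Foxa1 and the luminal regulator Gata3, and one of its classical targets is the progesterone receptor gene Pgr. Receptor-positive cells then signal to their neighbors by secreted factors such as RANK ligand, the product of Tnfsf11, while prolactin acts through Prlr and the kinase Jak2 on Stat5 in the cells that will make milk.

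The tumors arose from Trp53-null mammary duct fragments of BALB/c females, transplanted into cleared fat pads of wild-type BALB/c females at 3 weeks of age. All hosts were wild type, so that stroma, vessels and immune cells of the tumors could carry Trp53, and every tumor group shared the Trp53-null transplant. Hosts were fed a low fat diet (LFD) or a high fat diet (HFD) throughout, or were changed at 10 weeks of age from HFD to LFD (HFD-LFD) or from LFD to HFD (LFD-HFD). Tumors counted as early when they appeared before 52 weeks and as late otherwise. By histology 29 were epithelial (8 LFD, 8 HFD, 7 HFD-LFD and 6 LFD-HFD; 14 early and 15 late) and 12 were spindle cell tumors (3 of each regimen; 3 early and 9 late). Normal mammary gland was not among the samples analysed here. Each tumor was read once on a 2-color array, whose other channel held a commercial reference pool of mouse cell line RNA. The labels name the sampled tumors and not separate cultures or litters, and 3 numbers occur on a pair of tumors each, so that p-values measure the spread between these tumors.

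Values are log2 ratios of the tumor channel over the reference channel, so that 0 is the level of the reference pool and 1 is a doubling. The labels gave Cy5 to the tumor, which is the direction used here, while the methods of the study gave Cy5 to the reference. As a check, the Y-linked gene Ddx3y, which RNA of female mice lacks, was dimmer in Cy5 on 41 of 41 arrays (median log2 ratio −6.94). It was well above background in Cy5 on 1 array and in Cy3 on 41. Ratios of different genes come from different probes and are not set against each other as levels.

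The spindle cell arrays were all scanned in a session of their own, on another scanner and with another software version than the epithelial arrays, and the histologies and the sessions cannot be told apart. Between 52.4% and 94.9% of probes were well above background in the tumor channel of an array. Outlier spots made up 0.477% to 22% of an epithelial array, the highest share being that of the HFD early tumor MSU_60L, and 0.472% to 1.13% of a spindle cell array. For 3 HFD tumors, MSU_40R4A, MSU_57R and MSU_65R, the values deposited as a matrix followed the scanner values of another of the 3 labels, and results were also computed without them. The labels of the scanner files are used below.

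**Figure D1:**
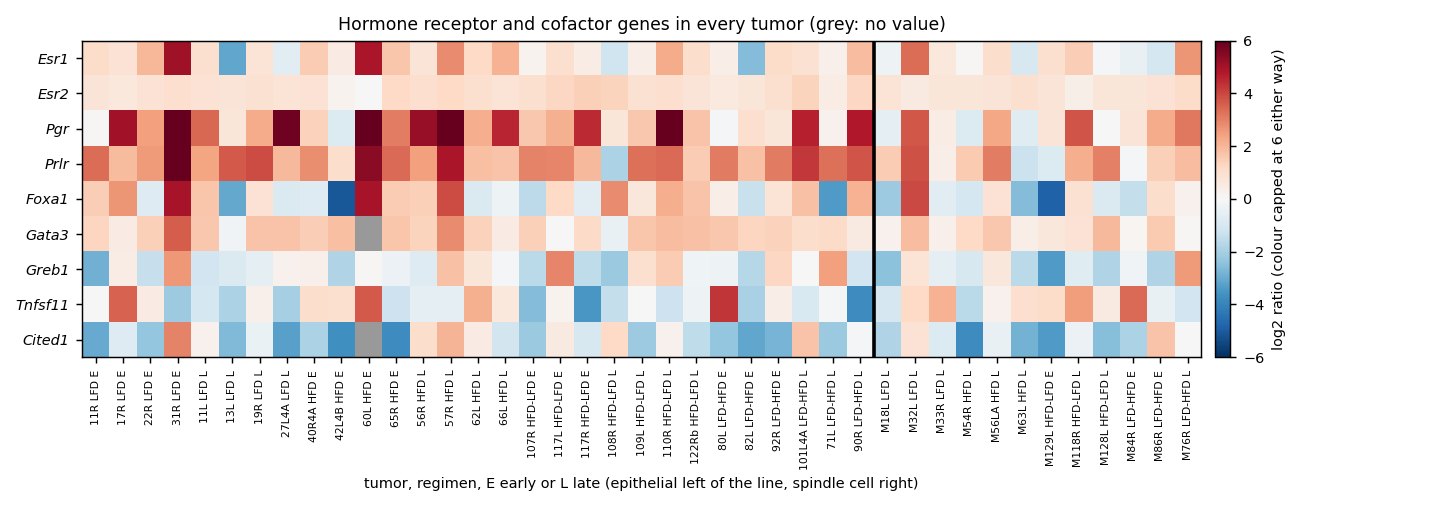
Heat map of the log2 ratio (tumor over reference) of the 9 genes, rows, in each of the 41 tumors, columns (named without MSU_), ordered by histology, regimen and onset; red is above and blue below the reference pool, and grey marks missing outlier spots. The epithelial tumors MSU_31R, MSU_57R and MSU_60L and the spindle cell tumor MSU_M32L stand out by high Esr1, Pgr, Prlr and Foxa1, while the row of Esr2 is nearly even.

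The 9 genes differed widely in how much they varied from tumor to tumor. Across the 29 epithelial tumors the SD of Pgr was 2.49, above that of 99.9% of the genes tested, and the SD of Foxa1 was 2.31, also above 99.9%. The genes tested had passed the filter on low signals and Pgr had not, so its share sets a dim probe against brighter ones. The Pgr probe was well above background in the tumor channel of 18 of the 29. Tnfsf11 (SD 1.95), Cited1 (1.86), Esr1 (1.69), Prlr (1.50) and Greb1 (1.47) each exceeded at least 97% of the genes tested. With normexp and loess the SDs of Pgr (1.14), Tnfsf11 (0.88) and Esr1 (0.88) were smaller and Cited1 (1.81) and Foxa1 (1.77) had the widest of the 9. Shares of all genes were not computed for these SDs. Gata3, with an SD of 0.83, lay nearer the median gene, whose SD was 0.56. Esr2 was the exception, with an SD of 0.32 that only 10.8% of genes undercut.

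Esr1, which encodes estrogen receptor alpha, ran in epithelial tumors from −3.12 (MSU_13L) through a median of 0.95 to 5.09 (MSU_31R), with 25 of the 29 tumors well above background. In spindle cell tumors it ran from −1.05 (MSU_M86R) through 0.35 to 3.36 (MSU_M32L), with 11 of the 12 well above background. The tumors MSU_31R and MSU_60L stood apart at the top (5.09 and 4.90), the next epithelial tumor being MSU_57R at 2.83, and the histologies overlapped over the whole spindle cell range. After normexp background correction, which draws dim spots toward 0, the epithelial range was −0.51 to 3.50.

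Esr2, which encodes estrogen receptor beta, ran from 0.01 (MSU_60L) through 0.91 to 1.42 (MSU_117R) in epithelial tumors and from 0.34 (MSU_M118R) through 0.75 to 1.11 (MSU_M76R) in spindle cell tumors. With processed signals every tumor was thus above the reference pool, by 0.01 to 1.42, whose own signal was well above background on all 41 arrays. With normexp and loess the lowest value was 0.03 in epithelial tumors and −0.04 in spindle cell tumors.

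Pgr, the progesterone receptor gene, ran from −0.81 (MSU_42L4B) through 2.21 to 8.97 (MSU_31R) in epithelial tumors and from −0.80 (MSU_M54R) through 0.78 to 3.78 (MSU_M118R) in spindle cell tumors. In the tumor channel its probe stood well above background for 18 epithelial tumors of 29 and for 3 spindle cell tumors of 12. The 4 highest tumors were MSU_31R, MSU_57R (7.06), MSU_110R (6.53) and MSU_60L (6.19), all epithelial and from 3 regimens. Since the reference pool was dim for Pgr, the height of these ratios depends on the background correction: with normexp the highest epithelial value was 4.89 and the median 0.45.

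Prlr, the prolactin receptor gene, ran from −1.91 (MSU_108R) through 2.98 to 6.36 (MSU_31R) in epithelial tumors and from −1.31 (MSU_M63L) through 1.56 to 3.84 (MSU_M32L) in spindle cell tumors. It was above the reference pool in all epithelial tumors but MSU_108R, and below it in 3 spindle cell tumors, MSU_M63L, MSU_M129L (−0.83) and MSU_M84R (−0.09).

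Except for Esr2, which had 1 probe, the receptor genes had several probes each, with 4 for Esr1, 3 for Pgr and 2 for Prlr. The probe of highest mean signal gave the values above. A further probe of Esr1, Pgr and Prlr each is printed here, because the Prlr difference described below depends on which probe is read. Coordinates are those of the array's annotation (mouse build mm9), and which exon each probe lies in was not analysed here. The first is Esr1 probe A_55_P2030883, chr10:5489352-5489411, minus strand, the second Pgr probe A_51_P213476, chr9:8961434-8961493, plus strand, and the third Prlr probe A_52_P458279, chr15:10255629-10255688, plus strand.
Esr1: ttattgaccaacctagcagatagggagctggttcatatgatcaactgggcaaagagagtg
Pgr: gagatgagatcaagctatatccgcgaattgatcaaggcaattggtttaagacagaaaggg
Prlr: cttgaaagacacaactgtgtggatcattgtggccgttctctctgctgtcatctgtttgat
Across the epithelial tumors these probes followed the ones in use with r = 0.69 for Esr1, 0.89 for Pgr and 0.92 for Prlr. The same r was not computed for the spindle cell tumors.

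Foxa1, the forkhead pioneer factor that opens chromatin for the estrogen receptor, ran from −5.07 (MSU_42L4B) through 0.85 to 4.96 (MSU_31R) in epithelial tumors and from −4.84 (MSU_M129L) through −0.76 to 3.95 (MSU_M32L) in spindle cell tumors. Its 3 highest epithelial tumors, MSU_31R, MSU_60L (4.94) and MSU_57R (3.91), were also the 3 highest for Esr1 and for Prlr. Gata3, a zinc finger factor needed for luminal cell fate, ran from −0.46 (MSU_108R) through 1.40 to 3.63 (MSU_31R) in the 28 epithelial tumors with a value, and from 0.09 (MSU_M76R) through 0.76 to 1.93 (MSU_M128L) in spindle cell tumors. It was above the reference pool in all spindle cell tumors and in all but 3 of the 28 epithelial ones.

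Greb1, an estrogen-induced cofactor of the estrogen receptor, ran from −2.86 (MSU_11R) through −0.27 to 2.94 (MSU_117L) in epithelial tumors and from −3.41 (MSU_M129L) through −0.83 to 2.56 (MSU_M76R) in spindle cell tumors. Tnfsf11, the RANK ligand through which progesterone acts on neighboring cells, ran from −3.76 (MSU_90R) through −0.30 to 4.29 (MSU_80L) in epithelial tumors and from −1.64 (MSU_M54R) through 0.77 to 3.40 (MSU_M84R) in spindle cell tumors. Cited1, a cofactor of the estrogen receptor without DNA binding of its own, ran from −3.76 (MSU_65R) through −1.33 to 2.96 (MSU_31R) in 28 epithelial tumors and from −3.76 (MSU_M54R) through −1.32 to 1.71 (MSU_M86R) in spindle cell tumors. For Tnfsf11, MSU_31R (−2.20), MSU_110R (−1.22) and MSU_57R (−0.53) were below the reference pool, while MSU_60L (3.69) was second only to MSU_80L among epithelial tumors.

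A small number of tumors carried the high values of many of these genes at once. The tumors MSU_31R (LFD, early) and MSU_57R (HFD, late) were each among the 5 highest epithelial tumors for 7 of the 9 genes, MSU_60L (HFD, early) for 5 and MSU_110R (HFD-LFD, late) for 4. They came from 3 regimens and from both onsets. At the other end MSU_42L4B (HFD, early) was among the 5 lowest for 6 genes and MSU_108R (HFD-LFD, late) for 5, although MSU_108R was also at 2.83 for Foxa1 and 1.21 for Cited1. Both MSU_60L and MSU_42L4B were scanned in a second session, MSU_60L has the most outlier spots of all arrays, and MSU_57R is among the tumors of disputed label.

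The first comparison asked how spindle cell tumors, the poorly differentiated class, differ from epithelial tumors. Of the 8 hormone receptor and cofactor genes tested, 1 was called, against 20.2% of all genes tested in the same fit (limma, Benjamini-Hochberg adjusted p under 0.05). The called gene was Prlr, which averaged 2.87 ± 1.50 (SD, n = 29) over epithelial tumors and 1.39 ± 1.59 (SD, n = 12) over spindle cell tumors. The difference was −1.48 (SE 0.51, 95% interval −2.50 to −0.46, limma adjusted p = 0.0338). The groups overlapped widely, and a share of 1 in 8 is no higher than the background. With normexp and loess the Prlr difference was −1.56 (SE 0.44, adjusted p = 0.0125; background 16.2%).

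The Prlr call was close to its limit and did not hold in several settings. It was lost with the slide as a random block (adjusted p = 0.0881; background 12.2%), with the second probe (difference −0.78, adjusted p = 0.166), with the mean of both probes (−1.13, adjusted p = 0.0719), without the 3 tumors of disputed label (−1.38, adjusted p = 0.0571) and among late tumors (−0.90, adjusted p = 0.376). It was also lost when MSU_M63L (−1.23, adjusted p = 0.0891), MSU_M129L (−1.28, adjusted p = 0.0793), MSU_M84R (−1.34, adjusted p = 0.0683) or MSU_M33R (−1.39, adjusted p = 0.0611) was left out, and it held in the other 37 of 41 such fits. Of the 3 early spindle cell tumors, 2 were below the reference pool for Prlr (MSU_M129L at −0.83 and MSU_M84R at −0.09), the third being MSU_M86R at 1.41. The 14 early epithelial tumors ran from 1.07 to 6.36. Whether the step between early and late tumors differed by histology was tested and not called (interaction −1.99, SE 1.11, limma adjusted p = 1).

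Among the transcription factors, Foxa1 was lower in spindle cell tumors by a difference of −1.18 with a wide interval (−2.71 to 0.34, limma adjusted p = 0.278), and Gata3 by −0.41 (−0.95 to 0.13, adjusted p = 0.286). At this number of tumors a Foxa1 difference of up to −2.71 lay within the interval. With normexp and loess the intervals lay below 0, at −2.40 to −0.06 for Foxa1 and −1.12 to −0.01 for Gata3. Neither gene was called there (limma adjusted p = 0.141 and 0.158). Esr1 (−0.37, interval −1.45 to 0.70, adjusted p = 0.662) and Esr2 (−0.14, interval −0.35 to 0.08, adjusted p = 0.381) did not pass the test. Neither did Greb1 (−0.67, adjusted p = 0.361), Cited1 (−0.21, adjusted p = 0.843) or Tnfsf11, whose mean was higher in spindle cell tumors (0.91, interval −0.32 to 2.15, adjusted p = 0.302). Other Esr1 probes gave differences of 0.40, −0.02 and 0.27, none called. The second Greb1 probe gave −0.56 (SE 0.24, limma adjusted p = 0.0841 in a fit of all probes), nearer the limit and not called.

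Pgr, in the fit without the signal filter, averaged 3.03 ± 2.49 (SD, n = 29) over epithelial tumors and 1.26 ± 1.72 (SD, n = 12) over spindle cell tumors. The difference of −1.77 (SE 0.76, interval −3.30 to −0.24) did not pass (limma adjusted p = 0.0786; background of that fit 26.2%). Its other 2 probes gave −0.61 and −0.41, and 9 of the 12 spindle cell tumors were not well above background, so that most of their values are near the limit of what the array could read. With normexp and loess the means were 0.85 and 0.25. Another fit left out MSU_M32L, MSU_M86R and MSU_M76R, listed as arrays of compressed ratios or low tumor signal with earlier results of these data known. Its Pgr difference was −2.37 (limma adjusted p = 0.0334). Of these, MSU_M32L and MSU_M76R were high for Pgr among spindle cell tumors, so leaving them out lowers the spindle cell mean. The tumor channel of MSU_M32L had 72.7% of probes well above background, the highest share of a spindle cell array. That fit thus cannot decide whether Pgr differs by histology.

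**Figure D2:**
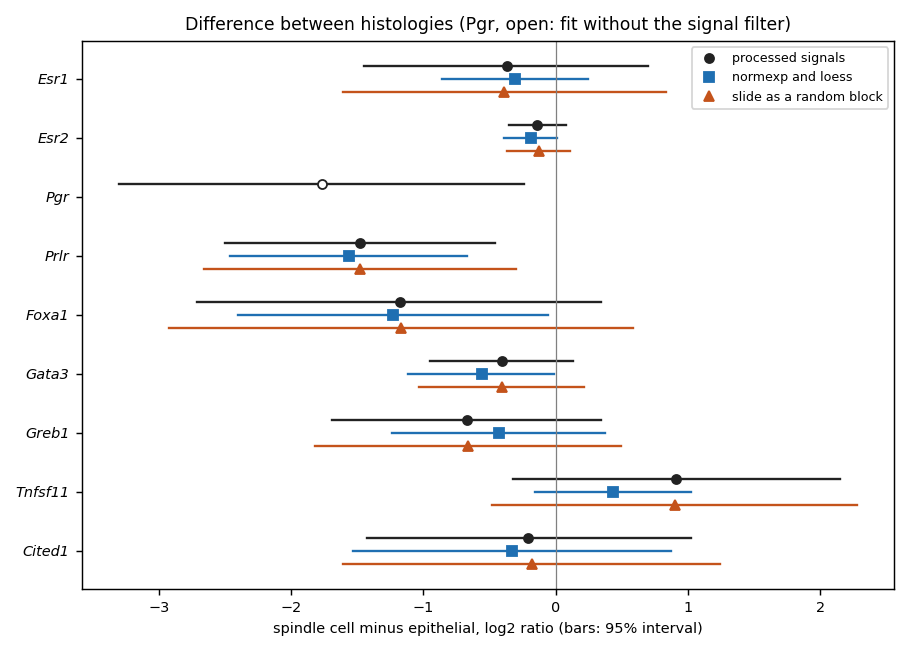
Difference between the mean log2 ratios of 12 spindle cell and 29 epithelial tumors for each of the 9 genes (points) with 95% intervals (bars), for processed signals, for normexp and loess, and with the slide as a random block; Pgr, open, comes from the fit without the signal filter. All 3 intervals of Prlr lie below 0, with the processed-signal difference at −1.48, and those of Esr1, Esr2, Greb1, Tnfsf11 and Cited1 cross 0 in each setting. Those of Foxa1 and Gata3 lie below 0 with normexp and loess and cross 0 in the other settings.

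Some marker genes of other cell types moved with histology, beside 20.2% of all genes. Of 10 mesenchymal markers, 5 were called higher in spindle cell tumors and none lower (Vim, Zeb1, Col1a1, Col3a1 and Pdgfrb; median difference 0.81, beside −0.07 over all genes tested), and the mean of the list ranged between −2.41 and −0.21 over epithelial tumors and between −2.12 and 0.32 over the others. Of 9 epithelial markers none was called (median −0.73), and their mean ran from −0.25 to 4.25 and from −1.45 to 2.79. Of 5 endothelial markers 2 were called higher, Pecam1 and Kdr. Of 8 T cell markers 1 was called lower, Cd8a (−1.39, limma adjusted p = 0.0344), with a list median of −0.76 and a list mean from −1.36 to 2.76 over epithelial tumors and from −1.62 to 1.06 over spindle cell tumors. The median spindle cell tumor had an epithelial marker mean of 1.42, above the reference pool. That mean was below the pool in MSU_M129L (−1.45) and MSU_M63L (−1.41), the spindle cell tumors of lowest Prlr. In MSU_M84R and MSU_M33R, whose removal also lost the Prlr call, it was 1.27 and 0.61. The part of these markers in the Prlr difference was not tested. In bulk tumor RNA, fewer cells of a type and less RNA per cell cannot be told apart.

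Genes of the hormone pathways outside the 9 were counted beside the same background of 20.2% of all genes. Of 20 estrogen receptor target genes, 1 was called higher and 3 lower in spindle cell tumors, a share near that background, with a median difference of −0.09. Igfbp4, which binds insulin-like growth factors, rose by 1.50 (limma adjusted p = 0.000414), while Myb (−1.41, adjusted p = 0.0379), Agr2 (−1.32, adjusted p = 0.000175; −0.70 with normexp, adjusted p = 0.0358) and Tff1 (−0.34, adjusted p = 0.0455) fell. Areg, the EGF receptor ligand that carries the estrogen signal to neighboring cells, differed by 0.15 (adjusted p = 0.893).

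The list of coregulators and related receptors had a median difference of −0.03. Cited2 rose by 0.65 (limma adjusted p = 0.0321), and the coactivators Ncoa1 (−0.62, adjusted p = 0.0455) and Ncoa2 (−0.39, adjusted p = 0.0151) fell. The calls of Tff1, Myb and Ncoa1 were not made with normexp and loess.

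The luminal lineage list moved one way among its calls: of 15 genes, 5 were called lower and none higher (median −0.21). Elf5, which directs the alveolar milk program, fell by 1.63 on the log2 scale (limma adjusted p = 0.00937). Tfap2c (−1.34, adjusted p = 0.0357), Grhl2 (−1.29, adjusted p = 0.0114) and Ehf (−1.11, adjusted p = 0.0227), all epithelial transcription factors, were the others beside Myb. Their share of 5 in 15 stands beside 20.2% of all genes.

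Of 13 genes of the prolactin pathway, 1 was called higher and 2 lower (median −0.57), beside 20.2% of all genes. Csn3, the kappa casein gene, fell by 1.48 on the log2 scale (limma adjusted p = 0.026) together with Elf5, and Socs3, a feedback inhibitor of cytokine receptors, rose by 0.43 (adjusted p = 0.044; 0.0949 with normexp). Jak2, Stat5a and Stat5b were not called. Of 11 genes of the RANK pathway, Nfkb1 rose by 1.06 (adjusted p = 0.00248) and Id2 fell by 0.86 on the log2 scale (adjusted p = 0.0156), with a list median of −0.12, and 2 of 11 stands beside the same 20.2%; the receptor gene Tnfrsf11a was not called.

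The study's central question was the diet, and here no hormone receptor or cofactor gene passed. Across the 4 regimens in epithelial tumors, 0 of 8 genes were called by limma's moderated F test (0.473% of all genes were called at an adjusted p under 0.1). Esr1 averaged 1.93 ± 1.41 (SD, n = 8) under HFD, 0.89 ± 2.31 (n = 8) under LFD, 0.59 ± 1.03 (n = 7) under HFD-LFD and 0.33 ± 1.54 (n = 6) under LFD-HFD (adjusted p = 0.614). The HFD range of 0.48 to 4.90 overlapped that of every other regimen.

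Prlr averaged 3.27 under LFD, 3.23 under LFD-HFD, 2.94 under HFD and 2.02 under HFD-LFD, the last group holding MSU_108R (limma adjusted p = 0.673). Tnfsf11 had the widest step between regimen means, from 0.76 ± 1.60 (SD, n = 8) under HFD to −1.27 ± 1.37 (SD, n = 7) under HFD-LFD. That step was 2.02 (SE 0.94), and the limma F test over the 4 regimens gave an adjusted p of 0.589. With normexp and loess the widest step of Tnfsf11 was 0.55, and that of Prlr (1.06) was wider. HFD tumors ran from −1.22 to 3.69 and HFD-LFD tumors from −3.47 to 0.19, and 7 of 8 against 4 of 7 were well above background. For Foxa1, Gata3, Greb1, Cited1 and Esr2 the regimen means lay within 0.84 of each other.

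**Figure D3:**
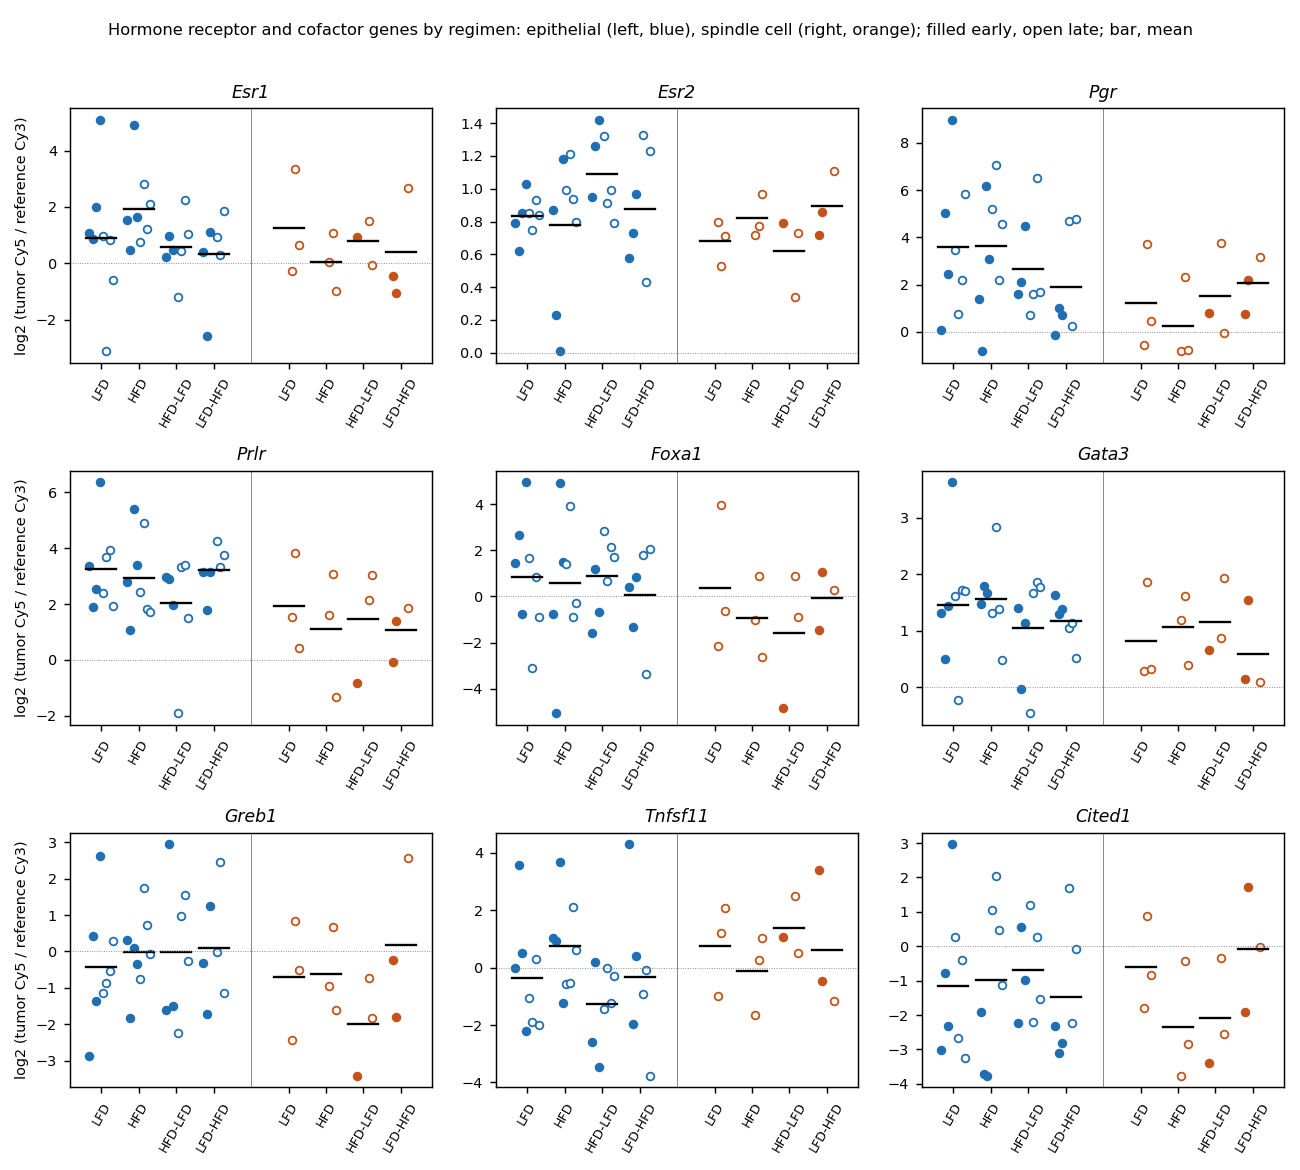
Log2 ratio of each of the 9 genes (1 panel a gene) by regimen, with epithelial tumors in blue on the left and spindle cell tumors in orange on the right; each point is a tumor, filled for early and open for late, and the bar is the group's mean. Regimens overlap in every panel, and the Esr1 mean of epithelial HFD tumors (1.93) is raised by MSU_60L at 4.90.

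Diet at puberty and in adulthood gave the same picture. Tumors of hosts fed HFD at puberty (HFD and HFD-LFD, n = 21) and not (LFD and LFD-HFD, n = 20) differed by −0.56 to 0.35 across the 8 genes, with 0 called (0.00956% of all genes), Prlr having the lowest value (limma adjusted p = 0.863). Adult HFD against adult LFD in epithelial tumors gave differences of −0.51 (Foxa1) to 1.07 (Tnfsf11), or −0.23 and 0.25 for these genes with normexp and loess, with 0 called (0% of all genes; 837 of them had an unadjusted limma p under 0.05). Among the 12 spindle cell tumors no gene at all was called across the 4 regimens (0%, with 781 at an unadjusted limma p under 0.05), at 3 tumors a regimen. The interaction of pubertal HFD with histology was called for 0.445% of all genes and for 0 of the 8, and with normexp and loess for 11.3% of all genes and again 0 of the 8. With normexp and loess 7 of 7 tested adipocyte markers were called lower in it (list median −3.41). With processed signals 1 of 7, Lpl, was called, with a list median of −3.27. Among spindle cell tumors the adipocyte marker mean was 3.41 in MSU_M76R and 1.37 in MSU_M32L, both without pubertal HFD. It lay between −4.94 and −3.20 in the others. The part of these markers and tumors in the values of the 8 was not tested. Among the 8, Cited1 had the interaction value of largest size (−2.34, SE 1.18, limma adjusted p = 0.418).

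Time of onset was the last contrast of the design. Early and late epithelial tumors did not differ by the test for any of the 8 genes (0.143% of all genes called). Cited1 had the difference of largest size, with 13 early tumors from −3.76 through −2.32 to 2.96 and 15 late tumors from −3.25 through −0.09 to 2.03. The ranges overlapped almost wholly, and the highest tumor, MSU_31R, was early. The difference of early minus late was −1.37 (SE 0.63, limma adjusted p = 0.349), and −1.34 with normexp.

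Tnfsf11 (0.95, limma adjusted p = 0.56) and Esr1 (0.60, adjusted p = 0.69) were higher on average in early epithelial tumors and did not pass. In spindle cell tumors, with 3 early and 9 late, Prlr differed by −1.63 (SE 0.89, adjusted p = 1) and no gene of the array was called (0%; 425 had an unadjusted limma p under 0.05). Over all tumors 0.0143% of genes were called, and in the onset by histology interaction 0.00478%, with 0 of the 8 in both. In the fit without the signal filter Pgr was not called in any diet or onset comparison, with early epithelial tumors at 2.58 and late ones at 3.44 on average (adjusted p = 0.755). In that fit the share of all genes called was 0.258% across regimens, 0.00994% for pubertal HFD, 0.288% for its interaction with histology, 0.053% for early against late epithelial tumors, 0.00663% for early against late over all tumors and 0.00994% for the onset interaction.

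Whether these genes rise and fall together from tumor to tumor was asked over the 29 epithelial tumors. Of the 36 pairs, 13 had a Benjamini-Hochberg adjusted p under 0.05 (permutation test of Pearson's r, 100000 resamples, two-sided), 12 of them positive, and 7 also passed by Spearman's rho. All values share the reference channel and some share a slide, and the arrays differ in background. Of the genes compared, 3.34% correlated with Esr1, 3.22% with Pgr, 3.35% with Foxa1 and 3.73% with Cited1 above 0.5, as a background for pairs of r above 0.5. The share was highest for Esr2 (5.97%), and it was 2% for Prlr, 1.7% for Tnfsf11, 1.08% for Gata3 and 0.565% for Greb1. These shares rest on positive r and not on an adjusted p, so they are no background for the count of 13. The share of genes with a negative r of like size was not computed.

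The receptors and their cofactors formed the positive pairs. Foxa1 and Cited1 had the highest r, 0.68 (raw permutation p = 4e-05, adjusted p = 0.00144), with rho 0.65 (raw permutation p = 0.00024, adjusted 0.00864). It was 0.66 without the 2 tumors farthest from the median of Foxa1. Pgr and Foxa1 gave r = 0.65 (permutation p = 0.00016, adjusted 0.00252) and rho 0.58 (p = 0.00125, adjusted 0.015), and r = 0.53 without the 2 farthest tumors.

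Esr1 and its target Pgr gave r = 0.62 (permutation p = 0.00029, adjusted 0.00252) and rho 0.55 (p = 0.00232, adjusted 0.0167). Without the 2 farthest tumors r was 0.50, and within slides, with each slide's mean removed, 0.69. Esr1 and Prlr gave r = 0.57 (permutation p = 0.00215, adjusted 0.0086) and rho 0.39 (p = 0.0387, adjusted 0.132), with r = 0.62 without the 2 farthest. Esr2 and Cited1 gave r = 0.56 (permutation p = 0.00198, adjusted 0.0086) and rho 0.61 (p = 0.00096, adjusted 0.015), with r = 0.54 without the 2 farthest. These 5 pairs kept an adjusted p under 0.05 for r with normexp and loess, within slides, without the 2 farthest tumors and without the second scan session. The 2 farthest tumors were those farthest, to either side, from the median of the gene named first in each of these pairs. For Esr1 the low MSU_13L lay farther out than MSU_60L, which stayed in. No setting left out MSU_31R, MSU_57R, MSU_60L and MSU_110R together. Whether these pairs rest on those tumors was thus not tested.

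Other pairs were less even across settings. Esr1 and Gata3 fell from r = 0.61 to 0.29, and Prlr and Gata3 from 0.56 to 0.11, without the 2 tumors farthest from the median. Esr1 with Cited1 fell from 0.47 to 0.28, and Prlr with Pgr and with Greb1 from 0.47 to 0.25 in both cases. Esr1 with Foxa1 (0.62 to 0.48, adjusted permutation p = 0.0595; rho 0.56 over all tumors, adjusted 0.0167) and Pgr with Cited1 (0.64 to 0.47, adjusted permutation p = 0.0625; rho 0.55, adjusted 0.0189) fell just past the limit. The negative pair was Esr2 with Tnfsf11 (r = −0.61, raw permutation p = 0.00058, adjusted 0.00348; rho −0.51, adjusted 0.0249), which was −0.52 without the 2 farthest tumors (adjusted permutation p = 0.033) and −0.38 with normexp and loess (adjusted permutation p = 0.0915). In the 12 spindle cell tumors, described without a test, r was 0.80 for Foxa1 with Cited1, 0.79 for Pgr with Cited1 and 0.79 for Prlr with Foxa1. It was 0.73 for Esr1 with Pgr and for Pgr with Foxa1, and 0.53 for Esr1 with Prlr. Esr2 with Cited1 (−0.11) and Esr1 with Gata3 (0.13) did not show the positive r of the epithelial tumors at a like size.

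**Figure D4:**
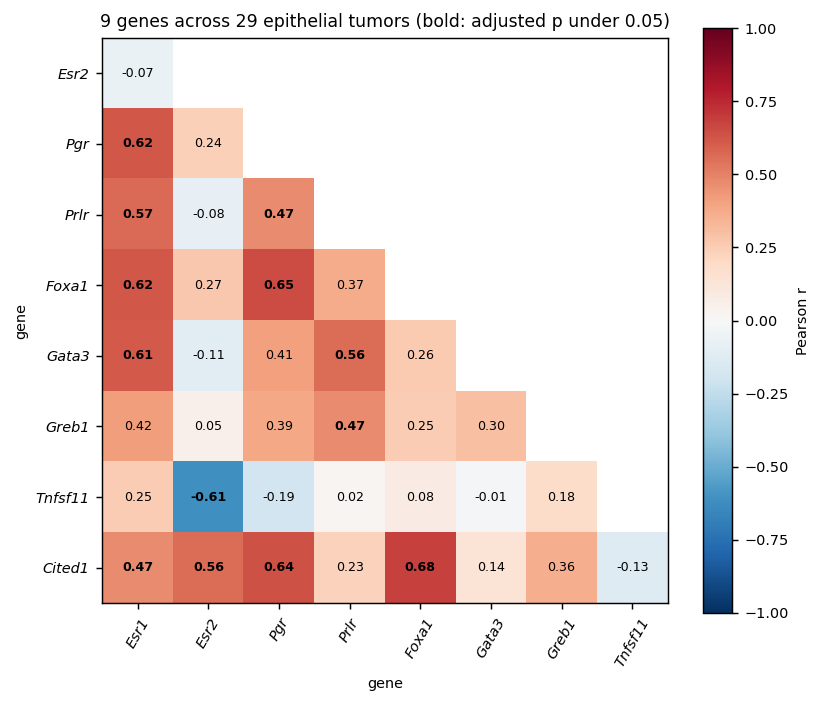
Pearson's r for each of the 36 pairs of the 9 genes over the epithelial tumors (28 or 29 values a pair), red for positive and blue for negative, with bold numbers where the adjusted permutation p is under 0.05. The pairs among Esr1, Pgr, Foxa1 and Cited1 are red, from 0.47 to 0.68, and Tnfsf11 stands apart with its bold value of −0.61 against Esr2.

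**Figure D5:**
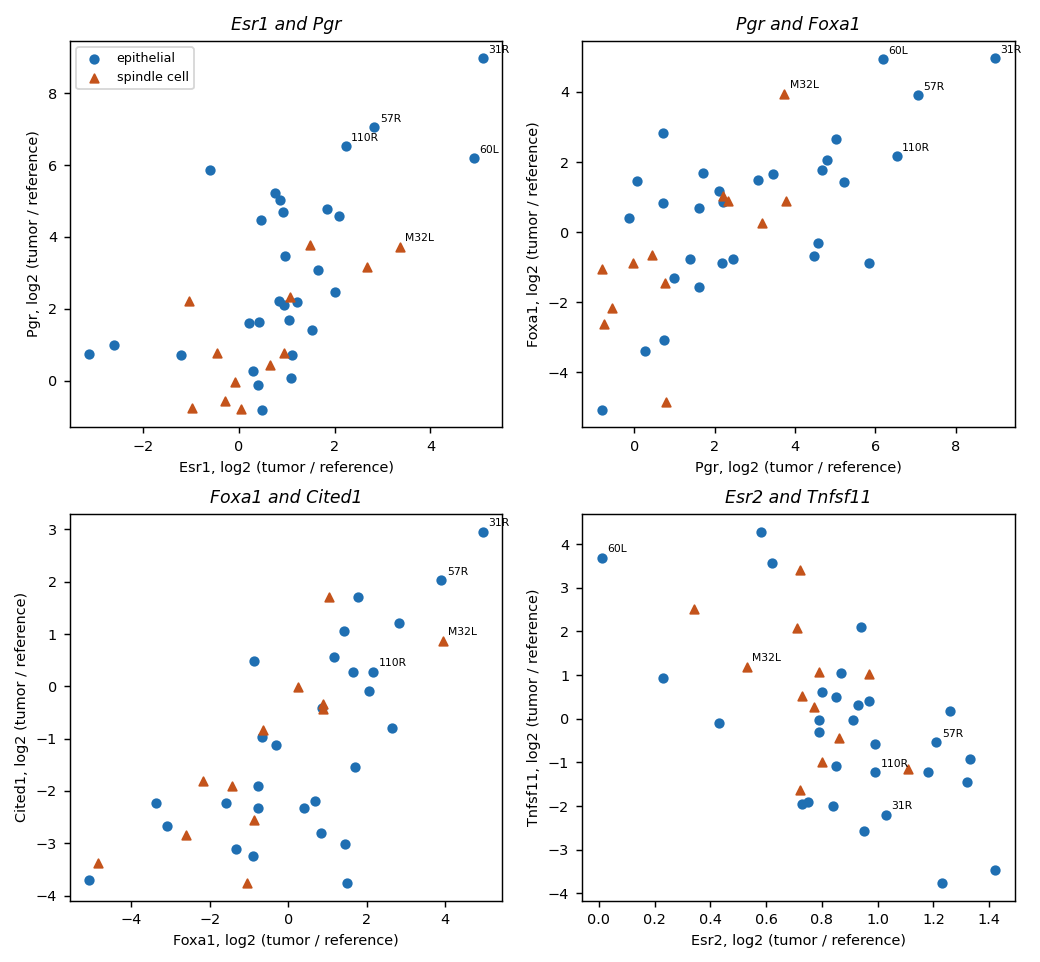
Log2 ratios of 4 gene pairs plotted against each other, with a point for each epithelial (blue circle) and spindle cell (orange triangle) tumor and names for the tumors of high Esr1, Pgr or Foxa1. The MSU_31R tumor lies at the upper right of the first 3 panels, and Esr2 spans only 0.01 to 1.42 in the last.

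The upstream sequences of genes that varied together were read for short motifs. RefSeq promoters were found for all 9 genes, 15 in all, and the 250 bases before each start were searched on both strands (GRCm38.p6, whose coordinates are not those of the probes). The forkhead motif TGTTTAC occurred in 2 of the 15, at Foxa1 and at 1 of 3 Prlr promoters, and in 3.17% of all 32851 promoters. The STAT motif TTCNNNGAA occurred at Prlr and at 1 of 2 Esr1 promoters, and in 7.02% of all. The half-site GGTCA, which is also each arm of the palindromic estrogen response element, was in 7 of the 15 and in 35.2% of all. The full palindrome and the GATA motif AGATAA were in none of the 15 windows, and in 0.0639% and 9.99% of all promoters.

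The 3 promoters with a forkhead or STAT match are printed 5′ to 3′ in the direction of the gene, with matches to these motifs and to the half-site in capitals. They are Foxa1 at chr12:57546112-57546361, minus strand, Prlr at chr15:10223656-10223905, plus strand, and Esr1 at chr10:4709908-4710157, plus strand.
Foxa1: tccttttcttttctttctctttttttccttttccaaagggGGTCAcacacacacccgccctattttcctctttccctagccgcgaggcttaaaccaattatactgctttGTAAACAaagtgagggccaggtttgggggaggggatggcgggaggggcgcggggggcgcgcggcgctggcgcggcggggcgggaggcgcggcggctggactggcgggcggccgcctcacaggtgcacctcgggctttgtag
Prlr: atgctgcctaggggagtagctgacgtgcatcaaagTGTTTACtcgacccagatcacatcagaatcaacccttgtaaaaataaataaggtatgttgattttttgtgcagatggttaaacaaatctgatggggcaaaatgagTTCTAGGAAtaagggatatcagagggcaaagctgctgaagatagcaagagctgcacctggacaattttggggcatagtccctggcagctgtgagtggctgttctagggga
Esr1: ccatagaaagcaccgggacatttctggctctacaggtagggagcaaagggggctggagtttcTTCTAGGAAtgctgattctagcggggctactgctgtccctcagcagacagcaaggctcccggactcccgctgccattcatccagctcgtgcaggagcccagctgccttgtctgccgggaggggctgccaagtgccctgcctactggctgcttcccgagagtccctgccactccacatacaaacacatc
The forkhead match of Foxa1 starts 141 bases before the transcription start and reads on the opposite strand, and that of Prlr 215 bases before it. A match is a description of the letters, and binding was not measured.

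The genes whose pattern over the epithelial tumors was most like each of the 9 were named from 15385 genes as a description, without a test. Esr1 was followed most closely by Nek7 (r = 0.84), Sh3rf1 (0.81) and Man1a (0.79), and Pgr by Abcc8 (0.85), Arhgap40 (0.83) and Fgfr2 (0.83). Prlr had Plk2 (0.77), Mycbpap (0.77) and Fer1l4 (0.76), and Esr2 had B230369F24Rik (0.91), Sgsm3 (0.90) and Dennd5b (0.89). None of the 9 was among the 3 nearest genes of another.

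Foxa1 was nearest to Nsmaf (0.83), Acsbg1 (0.77) and Rasgrf1 (0.77), and Cited1 to Upk2 (0.83), Gipc2 (0.83) and Htr4 (0.82). Gata3 had Pcnx (0.78), 4930412O13Rik (0.77) and Zer1 (0.75), and Greb1 had Padi2 (0.76), Epor (0.74) and Gja3 (0.68, but 0.34 with normexp). The nearest genes of Tnfsf11 were the collagens Col12a1 (0.78), Col3a1 (0.77) and Col1a1 (0.75), at 0.64, 0.64 and 0.59 with normexp.

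Marker means moved with some of these genes across the epithelial tumors. Tnfsf11 correlated with the mean of 10 mesenchymal markers at r = 0.55 (rho 0.64) and of 5 endothelial markers at 0.57. Esr1 also correlated with the endothelial markers, at 0.53 (rho 0.30). Pgr correlated with the mean of 7 basal or myoepithelial markers at r = 0.66 (rho 0.70), Cited1 at 0.56, Foxa1 at 0.54 and Esr1 at 0.49 (rho 0.39). Esr2 went the other way with the epithelial (r = −0.56, rho −0.14) and endothelial markers (r = −0.53, rho −0.23), with smaller values by rank. Prlr correlated with the epithelial markers at 0.31 and with the mesenchymal ones at −0.16. The part of these cell types in the values was not tested.

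Among the pathway genes, Areg followed Prlr (r = 0.74) and Esr1 (0.66), and Stc2, an estrogen-induced glycoprotein hormone, followed Cited1 (0.81). Pgr was followed by Tbx3 (0.78), a luminal transcription factor, and by Myb (0.74). Each of these values is the highest in 1 of the lists. The 15 luminal lineage genes had a median r of 0.01 with Pgr, beside 0 for all genes, the lowest being Xbp1 (−0.48). The estrogen receptor targets had a median r of 0.12 with Pgr and of 0.09 with Cited1. As lists, the 20 estrogen receptor targets had a median r of 0.10 with Esr1, beside 0.01 for all genes, and the 13 genes of the prolactin pathway had a median r of 0.30 with Prlr, beside 0.04. The 11 genes of the RANK pathway had a median r of 0.03 with Tnfsf11, beside 0.01.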

How the data were processed

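The authors deposited the scanner output of 41 Agilent 2-color arrays, with the intensity of each spot in both channels and a log10 ratio, and their own normalized table of log2 ratios. Per the file headers, Feature Extraction 11.0.1.1 (epithelial) and 10.5.1.1 (spindle cell) subtracted the background and normalized the dyes, while the submitters' processing notes name 8.5.1.1. The deposited log10 ratio was not used, and the log2 table served as an alternative.

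Tumors whose label gives a variable morphology were taken as epithelial. Ratios were log2 of the processed Cy5 over Cy3 signal. Control spots were dropped, outlier spots were left missing and spots of a probe were averaged. Genes were read by the probe of highest mean signal, and 27307 of 39429 probes passed the filter, a signal above 10 in each channel for 80% or more of the arrays. Differences were tested in limma 3.58.1 (R 4.3.3) with lmFit and eBayes over all genes, two-sided, with adjusted p limits of 0.05 for histology and 0.1 elsewhere. Correlations used permutation tests. The fits were tested on simulated data.

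The 9 genes and the lists were chosen with earlier results of these data known. Named are these 9, list genes called (at most 4 a direction) and the 3 nearest genes of each. Alternatives changed background correction (normexp, offset 50, with loess), centring, filter, probe, slide block and samples. The number of arrays limits the precision. A list gene is not reported here. Protein sequences and staining were not analysed here.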

Additional observations from a re-analysis of the deposited data

Results flagged for a closer look

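In 43 sets of 4 values, each of 1 gene in the tumors of one regimen, onset and histology, the highest and the lowest tumor were compared with the others by Dixon's criterion, and 3 stood apart. Chance alone gives about 1 in 20 such sets. Pgr in HFD-LFD late epithelial tumors was at 6.53 in MSU_110R, beside 0.71 to 1.70 in the other tumors of the group. Gata3 in the same group was at −0.46 in MSU_108R, beside 1.66 to 1.86. Gata3 in LFD late epithelial tumors was at −0.22 in MSU_13L, beside 1.62 to 1.72.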

How the results depend on the processing

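In spindle cell against epithelial tumors the count of called genes among the 8 was 1, and it was 0 with the mean of a gene's probes, with the slide as a random block, without the 3 tumors of disputed label and among late tumors; leaving out 1 tumor at a time gave 0 to 1, with 0 for MSU_M63L, MSU_M129L, MSU_M84R or MSU_M33R. The pairs correlated at an adjusted p under 0.05 numbered 13, and 7 without the 2 tumors farthest from the median, 14 with normexp and loess, 13 within slides and 15 without the second scan session (the last chosen after seeing the data). The causes were not tested.

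Of 1070 differences of the 9 genes under other settings, 1064 kept their direction and side of the limit or were uncalled throughout, 5 lost a call (all Prlr) and 1 gained one (Pgr), and none that was called reversed; 45 uncalled ones changed sign. Of 2528 with a tumor left out, 2524 did so and 4 lost a call. Over all genes, 4220 were called by histology (39.3% of them higher), 7894 without the filter (54% higher), 2550 with the slide block and 4710 with centred arrays (27.7% higher; the median over all genes moved from −0.07 to −0.13). Early against late epithelial tumors gave 30 calls, 16 without the filter and 1 with normexp, early against late over all tumors 3, 2 and 0, the interaction of pubertal HFD with histology 93, 87 and 2364, and that of onset 1, 3 and 0.

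No paired analysis was possible because the labels number no replicates, replicate numbers followed accession order, and any 2 of the groups compared share no more than 1 tumor number. Dim probes (Pgr, and Tnfsf11 and Esr1 in some tumors) limit how low a value is read.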
